A study of Mus musculus with 9 samples.

Results

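The NF-kB pathway and its target genes were followed in RNA from haematopoietic stem cells (HSCs), the marrow cells from which all blood lineages arise. The list held 37 genes, picked by symbol with earlier results of these data known. All 37 were found among the 46626 named rows of the expression table. These genes covered NF-kB subunits, inhibitors, kinases, adaptors, receptors, ligands and targets. About 2000 HSCs of C57BL/6 bone marrow went into each library, and the sort gates are not given in the sources used here. There were 3 groups of 3 libraries, taken from the sample titles. The sample descriptions, which link titles to columns, carry one and the same ending, HSC-Y-S, in all 9 libraries, old ones included, so the groups rest on the titles alone. The first group came from old mice of 15 to 20 months given BRL37344, an agonist of the β3-adrenergic receptor, at 2.4 mg per kg per day. The second came from saline old mice of 15 to 20 months, and the third from saline young mice of 2 months. Every group carried osmotic pumps for 12 weeks, with a second pump after 6 weeks, so the controls had the surgery too, and the ages are those at the first implant. Whether replicates within a group are different animals is not labelled, and a p-value here reflects only library-to-library spread, some of which may be technical.

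Levels are in RPKM, reads scaled by transcript length and by library size, so levels of different genes can be compared per length. From the steps between low values, BRL37344 old libraries held about 16000000 to 45000000 reads, saline old libraries 15300000 to 41500000 reads and saline young libraries 12200000 to 22500000 reads. At 1 RPKM a transcript of 2000 bases, with 200 bases taken off its length, then rests on 21.9 to 81.0 reads. Of 17 HSC markers, 16 or 17 reached 1 RPKM in every library. This shows that their RNA was present and does not measure purity. All 16 neutrophil markers also reached 1 RPKM in saline young replicate 3, for example. The summed level of 16 neutrophil markers differed between libraries, with 637, 6262 and 2280 RPKM for replicates 1, 2 and 3 of BRL37344 old, against 1142 to 1393 RPKM in saline old, and at 1303, 2018 and 20170 RPKM in saline young. In such bulk samples, fewer cells of a type and less RNA per cell cannot be told apart.

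NF-kB proteins are transcription factors that work as pairs of subunits and are held in the cytoplasm by IkB proteins. When a receptor such as a TNF or IL-1 receptor is engaged, adaptors and ubiquitin ligases activate the IkB kinase complex, IkB is degraded and the pair enters the nucleus. A second, slower branch runs through the kinase NIK and the subunits p52 and RelB, and is used by the lymphotoxin β receptor. Several of the genes switched on encode brakes of the same pathway, IkBα among them. In blood, the pathway is known for inflammatory signalling, survival and lymphocyte development.

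The promoters of 4 genes that the comparisons below turn on are shown, to place the results beside the sequence that NF-kB pairs can read. Each runs from 250 bases before the annotated start to 50 bases after it, 5′ to 3′ on the gene's strand, from RefSeq in build GRCm38.p6, the assembly of the mm10 build named by the submitters. Capitals mark matches to the kappaB consensus, a 10-base motif searched on both strands. Ltb lies at chr17:35194257-35194556 on the plus strand, Nfkbia at chr12:55492598-55492897 on the minus strand, Tnip1 at chr11:54962891-54963190 on the minus strand, and Irak4 at chr15:94543410-94543709 on the plus strand.
Ltb: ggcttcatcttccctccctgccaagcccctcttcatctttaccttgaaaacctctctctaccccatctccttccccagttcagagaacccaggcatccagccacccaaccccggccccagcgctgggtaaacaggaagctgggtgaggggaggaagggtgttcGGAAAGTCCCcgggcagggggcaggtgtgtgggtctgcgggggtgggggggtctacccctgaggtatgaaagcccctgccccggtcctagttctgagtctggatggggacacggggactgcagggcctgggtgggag
Nfkbia: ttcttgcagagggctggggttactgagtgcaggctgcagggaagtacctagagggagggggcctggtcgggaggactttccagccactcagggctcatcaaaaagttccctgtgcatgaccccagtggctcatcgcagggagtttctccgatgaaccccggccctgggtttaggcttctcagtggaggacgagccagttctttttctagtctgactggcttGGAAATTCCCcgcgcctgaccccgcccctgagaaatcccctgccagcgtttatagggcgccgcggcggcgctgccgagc
Tnip1: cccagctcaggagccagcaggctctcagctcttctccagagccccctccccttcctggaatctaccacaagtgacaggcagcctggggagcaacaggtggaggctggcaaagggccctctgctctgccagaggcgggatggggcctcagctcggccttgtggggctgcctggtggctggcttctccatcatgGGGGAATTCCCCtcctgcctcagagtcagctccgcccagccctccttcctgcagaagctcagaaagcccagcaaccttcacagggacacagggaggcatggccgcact
Irak4: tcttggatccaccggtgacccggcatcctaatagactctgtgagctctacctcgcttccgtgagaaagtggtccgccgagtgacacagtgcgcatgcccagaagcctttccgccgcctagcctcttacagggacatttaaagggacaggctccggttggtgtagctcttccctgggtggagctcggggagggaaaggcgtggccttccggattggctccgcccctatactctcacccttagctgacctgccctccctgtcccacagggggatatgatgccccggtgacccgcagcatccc
The Ltb match begins 87 bases before the start and reads GGGACTTTCC on the opposite strand. The Nfkbia match begins 29 bases before the start and reads GGGAATTTCC on the opposite strand. In Tnip1 the capitals hold 4 overlapping matches, 2 on each strand, with the first beginning 58 bases before the start. Irak4 has none in this window. Of the 31 listed genes with an entry in the RefSeq promoter table, 13 held the consensus in at least 1 listed promoter (41.9%), against 9.55% of all 27025 genes in that table. The list was built to include NF-kB targets, so the higher share is no finding about these data. Genes with several listed promoters also had more chances of a match. A match is a description of letters and does not show binding.

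The members differed widely in level. Of the 37 genes, 31 reached 1 RPKM in at least 3 libraries and could be tested. The other 6 were Tnf, the prototype ligand, Il1r1, the IL-1 receptor, Cd40, a TNF-family receptor of antigen-presenting cells, Myd88, the adaptor of Toll-like and IL-1 receptors, Map3k14, which encodes NIK, and Cxcl2, a neutrophil-attracting chemokine. Their highest values were 0.635 RPKM for Tnf, 0.778 for Il1r1, 0.662 for Cd40, 0.564 for Myd88, 1.13 for Map3k14 and 0.557 for Cxcl2. Cd40 and Cxcl2 were each listed at or under 0.01 RPKM in 6 of the 9 libraries. Exons of Myd88 overlap those of Acaa1a on the opposite strand, which stood at 27.0 to 42.5 RPKM, and these reads cannot be told apart by a library kit that does not keep strand.

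**Figure D1:**
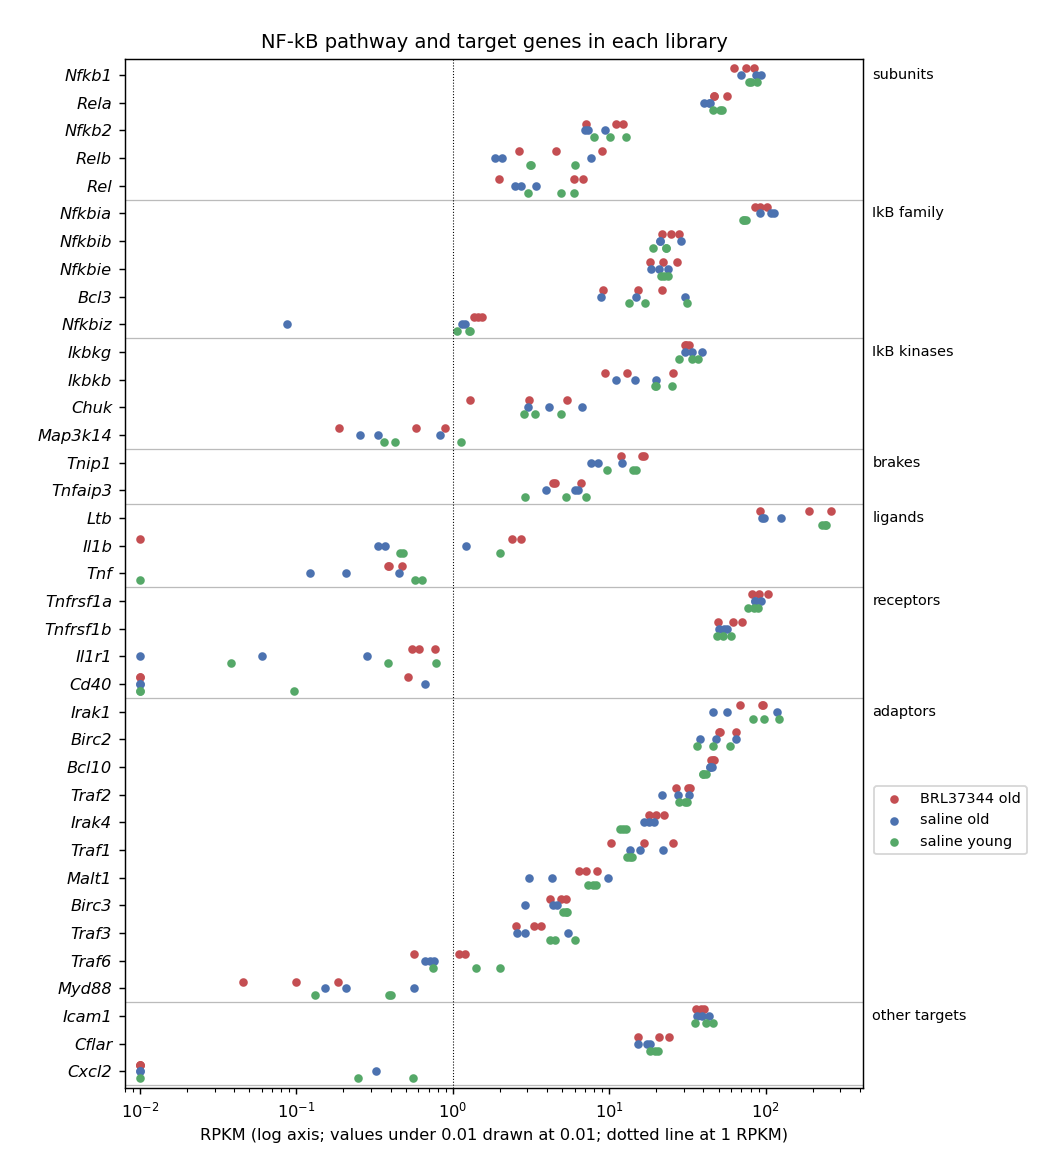
Level of each of the 37 genes in each library, in RPKM on a log axis, grouped by role and coloured by group; values at or under 0.01 are drawn at 0.01 and the dotted line marks 1 RPKM. Nfkb1, Nfkbia, Ltb, Tnfrsf1a and Irak1 led their roles, with means over the 9 libraries of 79.8, 90.0, 174, 87.8 and 87.0 RPKM.

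Among the subunits, Nfkb1, which encodes the p105 precursor of p50, was the most abundant. It stood at 74.9, 63.1 and 84.7 RPKM in BRL37344 old, against 69.3, 93.1 and 86.8 RPKM in saline old, and at 77.9, 80.6 and 88.5 RPKM in saline young. The 3 groups overlapped. Rela, the p65 subunit that carries a transactivation domain, came next, and the other subunits, Nfkb2, Relb and Rel, lay between 1.87 and 12.7 RPKM. Of the IkB family, Nfkbia (IkBα) led, followed by Nfkbib (IkBβ), Nfkbie (IkBε) and Bcl3, a nuclear IkB-like cofactor. Nfkbib was at 21.7, 24.9 and 27.8 RPKM in BRL37344 old, against 21.0, 21.2 and 28.9 RPKM in saline old, and at 19.0, 23.1 and 23.2 RPKM in saline young, so its groups overlapped. Its exons overlap those of Sirt2 on the opposite strand, which stood at 22.8 to 33.2 RPKM. Nfkbie ranged from 18.2 to 27.3 RPKM and Bcl3 from 8.89 to 31.5 RPKM over the 9 libraries.

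Among the kinases, Ikbkg, the scaffold NEMO, was at 31.0, 32.4 and 30.7 RPKM in BRL37344 old, against 39.3, 33.7 and 30.7 RPKM in saline old, and at 36.98, 34.002 and 28.1 RPKM in saline young. Ikbkb, the kinase IKKβ of the fast branch, varied more, at 25.4, 9.33 and 12.98 RPKM in BRL37344 old, against 19.8, 11.1 and 14.5 RPKM in saline old, and at 19.5, 25.3 and 19.98 RPKM in saline young. Both genes overlapped between all groups. Chuk, the kinase IKKα, ranged from 1.28 to 6.69 RPKM. Exons of Ikbkg overlap those of G6pdx on the opposite strand, which stood at 41.7 to 61.0 RPKM.

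Both TNF receptors were well expressed while their ligand was not. Tnfrsf1a, the TNF receptor with a death domain, was at 90.2, 103 and 81.9 RPKM in BRL37344 old, against 85.6, 85.3 and 93.4 RPKM in saline old, and at 77.2, 89.4 and 83.8 RPKM in saline young. Tnfrsf1b, the TNF receptor without one, was at 61.7, 70.5 and 49.6 RPKM in BRL37344 old, against 50.3, 54.4 and 56.4 RPKM in saline old, and at 48.5, 53.6 and 60.04 RPKM in saline young. No pair of groups separated for either receptor. Il1b, the ligand interleukin-1β, was at 0.0005, 2.75 and 2.40 RPKM in BRL37344 old, against 0.367, 0.331 and 1.21 RPKM in saline old, and at 0.460, 0.479 and 2.00 RPKM in saline young. Its 3 highest libraries were BRL37344 old replicates 2 and 3 and saline young replicate 3, which were also the 3 with the highest summed neutrophil markers. That match depends on the summary used. By the mean log2 level of these markers, saline young replicate 2, at 5.41, ranked above BRL37344 old replicate 3, at 4.80. The part of neutrophil RNA in Il1b was not tested.

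Of the adaptors, Irak1, a kinase that relays IL-1 and Toll-like receptor signals, was at 68.6, 96.1 and 94.8 RPKM in BRL37344 old, against 118, 56.8 and 46.1 RPKM in saline old, and at 97.6, 82.6 and 122 RPKM in saline young. Birc2, the ubiquitin ligase cIAP1, was at 65.0, 50.3 and 51.4 RPKM in BRL37344 old, against 65.0, 47.8 and 38.2 RPKM in saline old, and at 59.4, 45.8 and 36.5 RPKM in saline young. For both, the spread within a group covered the differences between groups. Bcl10, which joins Malt1 downstream of antigen receptors, varied little, with all 9 libraries between 39.99 and 46.7 RPKM. The TNF receptor adaptors Traf2 and Traf1 ranged from 21.7 to 33.0 and from 10.3 to 25.5 RPKM, Traf6, which serves IL-1 and Toll-like receptors, from 0.563 to 2.00 RPKM, and Birc3, the ligase cIAP2, from 2.87 to 5.35 RPKM.

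Among the other targets and brakes, the groups of Icam1, Cflar and Tnfaip3 overlapped. Icam1, an adhesion molecule, was at 38.4, 40.3 and 36.0 RPKM in BRL37344 old, against 43.7, 36.1 and 39.4 RPKM in saline old, and at 35.5, 45.7 and 41.4 RPKM in saline young. Cflar, the caspase-8 inhibitor c-FLIP, was at 20.9, 24.3 and 15.3 RPKM in BRL37344 old, against 15.3, 18.2 and 17.5 RPKM in saline old, and at 18.1, 20.5 and 19.7 RPKM in saline young. Tnfaip3, which encodes the ubiquitin-editing brake A20, was at 6.63, 4.47 and 4.34 RPKM in BRL37344 old, against 6.32, 6.03 and 3.95 RPKM in saline old, and at 7.11, 5.27 and 2.89 RPKM in saline young.

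The first comparison set BRL37344 old against saline old, and asked whether β3-adrenergic stimulation changed the pathway in old HSCs. No listed gene passed (limma, 0 of 31 tested, adjusted p of 0.05 over all 13516 genes tested), and 0% of all genes passed either. At an unadjusted p under 0.05, 1 member was higher and 0 lower, against 2.9% and 2.74% of all genes (5.64% in either direction). More members lay above 0 than below, 21 against 10, with a median log2 change of 0.16, where the median over all genes tested was 0.01 and 51% of them lay above 0. These counts leave out the 6 members not tested. Of the tested members, 2 had all BRL37344 old libraries above all saline old ones and none the reverse, against 4.82% and 5.28% of all genes (10.1% in either direction).

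The member with the smallest p was Tnip1, which encodes ABIN1, a ubiquitin-binding partner of A20 that dampens NF-kB. Tnip1 stood at 16.8, 16.3 and 11.9 RPKM in BRL37344 old, against 8.44, 7.61 and 12.1 RPKM in saline old. Replicate 3 of each group lay at the same level, and the other libraries were apart. Its log2 change was 0.66 ± 0.24 (SE), with a limma adjusted p of 0.839. Saline young libraries were at 9.71, 14.9 and 14.2 RPKM.

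Ltb, the lymphotoxin β chain, a TNF-family ligand of lymphoid cells, differed between the libraries of the BRL37344 group. Replicates 1, 2 and 3 of BRL37344 old held 189, 260 and 92.1 RPKM, against 124, 97.5 and 94.9 RPKM in saline old. Replicates 1 and 2 exceeded every saline old library and replicate 3 was below them all. The log2 change was 0.66 ± 0.30 (SE) and did not pass (limma adjusted p = 0.839). Without BRL37344 old replicate 3 the log2 change was 1.08 and passed (limma adjusted p = 0.0359, with a range over all 19 alternatives of 0.0359 to 0.9999). Without that library, 0.284% of all genes passed.

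**Figure D2:**
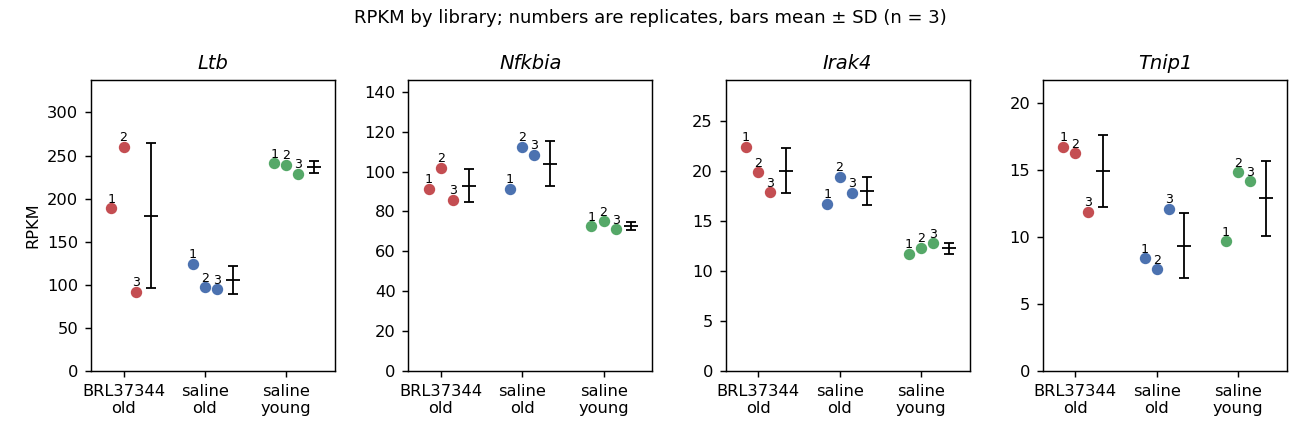
RPKM of Ltb, Nfkbia, Irak4 and Tnip1 in each library, with points numbered by replicate and bars giving the mean ± SD (n = 3) of BRL37344 old, saline old and saline young. Ltb spans 92.1 to 260 RPKM in BRL37344 old, while saline old lies at 94.9 to 124 and saline young at 229 to 241 RPKM.

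Of the other members with the smallest p, Rela stood at 46.4, 56.2 and 47.0 RPKM in BRL37344 old, against 44.1, 40.3 and 43.6 RPKM in saline old, without overlap. Nfkbiz, an inducible nuclear IkB protein, was at 1.46, 1.54 and 1.36 RPKM in BRL37344 old, against 1.2003, 0.0874 and 1.14 RPKM in saline old. Those groups did not overlap either, but saline old replicate 2 alone was far below the rest and all values were low. Nfkbia was at 91.4, 102 and 85.8 RPKM in BRL37344 old, against 91.4, 112 and 108 RPKM in saline old, with a log2 change of -0.16 ± 0.11 (SE). Malt1, the paracaspase that works with Bcl10, was at 6.38, 8.33 and 7.12 RPKM in BRL37344 old, against 9.78, 4.33 and 3.08 RPKM in saline old. Its range in saline old enclosed the whole of BRL37344 old. Adjusted p was 0.839 for Rela, 0.848 for Nfkbiz and Nfkbia, and 0.855 for Malt1 (limma).

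By role, 4 of 5 subunits, both tested ligands, both tested receptors and 8 of 10 tested adaptors had a log2 change above 0, and the 3 tested kinases had one below 0. None of these passed. The interval of the difference still allowed sizeable change for the scarce genes, such as -0.64 to 1.73 for Relb on the log2 scale (95%, limma). It was narrower for the abundant ones, such as -0.20 to 0.31 for Tnfrsf1a and -0.18 to 0.25 for Bcl10.

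**Figure D3:**
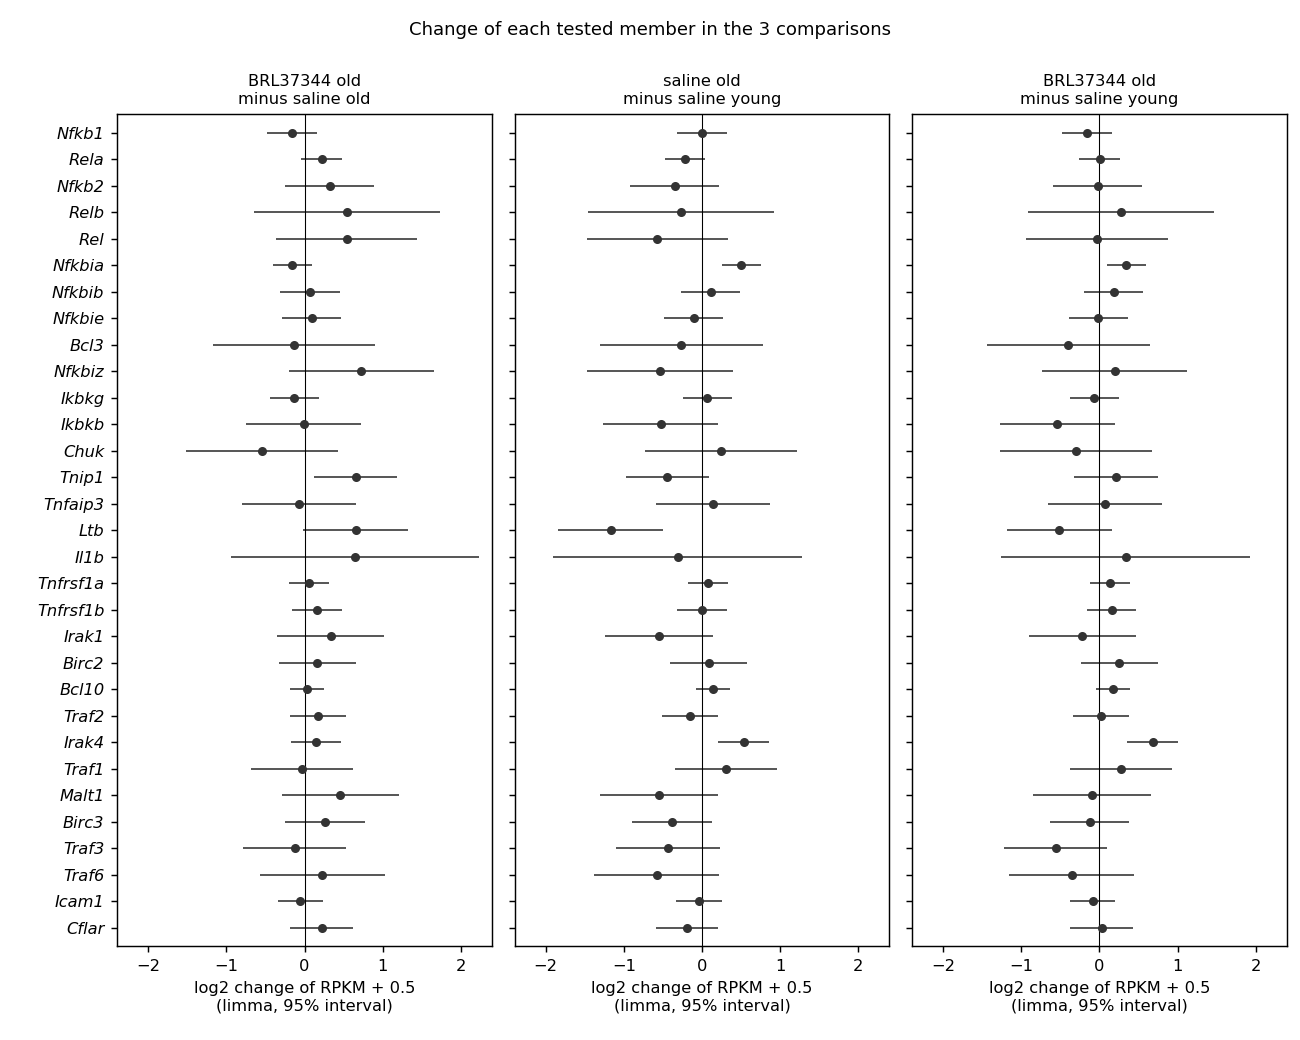
Log2 change of RPKM + 0.5 for each of the 31 tested members in the 3 comparisons, with unadjusted 95% limma intervals. The intervals of Nfkbia, Ltb and Irak4 lie clear of 0 in saline old minus saline young, that of Tnip1 in BRL37344 old minus saline old, and those of Nfkbia and Irak4 in BRL37344 old minus saline young; none passed the adjusted threshold.

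The second comparison set saline old against saline young, and asked how the pathway differed with age. Here too no listed gene passed (limma, 0 of 31 tested), while 1.58% of all genes tested did, 1.18% higher and 0.4% lower. At an unadjusted p under 0.05, 2 members were higher and 1 was lower, against 6.44% and 8.59% of all genes (15% in either direction). Members lay below 0 more often than above, 20 against 11, with a median log2 change of -0.19, where the median over all genes tested was -0.02 and 47.3% lay above 0. Of the 31, 3 members had all saline old libraries above all saline young ones and 3 the reverse, against 9.39% and 10.9% of all genes (20.3% in either direction).

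The largest difference was in Ltb. It stood at 124, 97.5 and 94.9 RPKM in saline old replicates 1, 2 and 3, against 241, 240 and 229 RPKM in saline young. The groups lay far apart and each was tight, with means of 106 ± 16.4 and 237 ± 6.76 RPKM (SD, n = 3). The log2 change was -1.17 ± 0.30 (SE), with a limma adjusted p of 0.104 in the model over all 9 libraries, whose spread includes that of the BRL37344 group. Ltb passed in 3 of the 19 alternatives and not in the main fit. Its adjusted p was 0.00353 in a fit of these 2 groups alone and 0.00382 without BRL37344 old replicate 3. With sample quality weights it was 0.0107, and the range over all 19 alternatives was 0.00353 to 0.298 (limma).

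Some B cell markers were also higher in saline young. The summed level of 10 B cell markers was 43.0 to 50.1 RPKM in BRL37344 old, 39.6 to 49.96 RPKM in saline old and 48.5 to 71.8 RPKM in saline young. At least 1 RPKM was reached by 1 to 3 of these 10 markers in BRL37344 old, 2 in saline old and 3 to 6 in saline young. Most of each sum was Cd79b, at 35.5 to 54.4 RPKM. Cd79a, the other signalling chain of the B cell receptor, was at 0.519, 0.234 and 0.842 RPKM in saline old, against 5.94, 2.68 and 0.743 RPKM in saline young. Ms4a1, which encodes CD20, reached at most 0.368 RPKM in saline old, against 4.26 and 1.85 RPKM in saline young replicates 1 and 2, with replicate 3 listed under 0.01. Vpreb3, a gene of B cell precursors, reached at most 0.511 RPKM in saline old, against 3.48, 1.17 and 2.31 RPKM in saline young. In BRL37344 old, replicate 2 was the highest of its group for Cd79a, at 2.55 RPKM, and for Vpreb3, at 0.911 RPKM, as it was for Ltb. Pax5, a transcription factor of B cells, was at or under 0.01 RPKM in all 9 libraries. The 12 T and NK cell markers summed to 102 to 241 RPKM in BRL37344 old, 85.9 to 224 RPKM in saline old and 103 to 159 RPKM in saline young. At least 1 RPKM was reached by 2 to 7 of them in BRL37344 old, 1 to 2 in saline old and 2 in saline young. Nkg7 alone held 85.6 to 235 RPKM, and the T cell receptor chain gene Cd3e was at or under 0.01 RPKM in 7 libraries, with 1.64 RPKM in BRL37344 old replicate 2. The part of such cells in the level of Ltb was not tested.

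Nfkbia went the other way. It stood at 91.4, 112 and 108 RPKM in saline old, against 72.6, 75.0 and 71.1 RPKM in saline young, with no overlap. The log2 change was 0.50 ± 0.11 (SE), and did not pass (limma adjusted p = 0.0607). It passed with median-of-ratios scaling (adjusted p = 0.0487), with sample quality weights (0.00506) and without saline old replicate 1 (0.0230), with a range over all 19 alternatives of 0.00506 to 0.248. Irak4, the kinase that activates Irak1 at IL-1 and Toll-like receptors, stood at 16.7, 19.4 and 17.8 RPKM in saline old, against 11.7, 12.3 and 12.8 RPKM in saline young. Those groups did not overlap, and the log2 change of 0.53 ± 0.15 (SE) had a limma adjusted p of 0.123. It passed only with sample quality weights, at 0.0185, of a range of 0.0185 to 0.366.

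Exons of Irak4 overlap those of Twf1 on the opposite strand by up to 170 bases. Twf1 stood at 36.1, 11.2 and 17.2 RPKM in saline old, against 8.57, 21.5 and 23.4 RPKM in saline young, with overlapping groups. How far its reads enter the Irak4 values was not tested.

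The next members by p did not come near the threshold. Rela stood at 44.1, 40.3 and 43.6 RPKM in saline old, against 46.1, 50.8 and 52.3 RPKM in saline young, without overlap (log2 change -0.22 ± 0.12 SE, limma adjusted p = 0.418). Tnip1 was at 8.44, 7.61 and 12.1 RPKM in saline old, against 9.71, 14.9 and 14.2 RPKM in saline young, with overlap. Irak1, at 118, 56.8 and 46.1 RPKM in saline old, against 97.6, 82.6 and 122 RPKM in saline young, had 1 old library apart from the other 2. Without that library, saline old replicate 1, Irak1 and Nfkbia passed, as did Malt1, and 4.43% of all genes passed. The Irak1 log2 change was then -0.95 (limma adjusted p = 0.0336), against -0.55 with all libraries (adjusted p = 0.441), and its adjusted p ranged from 0.0336 to 0.795 over the 19 alternatives.

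By role, 4 of 5 subunits and both tested ligands had a log2 change below 0, with 2 of 5 IkB family genes and 4 of 10 tested adaptors above it. Nfkb1 and Tnfrsf1b had the changes closest to 0, 0.004 and -0.01, with 95% limma intervals of -0.32 to 0.32 and -0.32 to 0.31.

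Treated old libraries were last set beside saline young ones, a contrast that combines age and treatment. It shares libraries with both other comparisons, so its values are given only side by side with theirs. No listed gene passed (limma, 0 of 31 tested), against 0.769% of all genes, 0.695% higher and 0.074% lower. At an unadjusted p under 0.05, 2 members were higher and 0 lower, against 5.25% and 4.13% of all genes (9.38% in either direction). Members were split evenly, 16 above 0 and 15 below, with a median log2 change of 0.0004, where that of all genes tested was -0.04 and 44.5% lay above 0. All BRL37344 old libraries were above all saline young ones for 4 members and below for 1, against 7.29% and 7.88% of all genes (15.2% in either direction).

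Irak4 had the smallest p, at 22.4, 19.9 and 17.8 RPKM in BRL37344 old, against 11.7, 12.3 and 12.8 RPKM in saline young. The groups lay apart, and the log2 change was 0.68 ± 0.15 (SE, limma adjusted p = 0.0832), passing with sample quality weights at 0.0429 of a range of 0.0429 to 0.423. Nfkbia was at 91.4, 102 and 85.8 RPKM in BRL37344 old, against 72.6, 75.0 and 71.1 RPKM in saline young. It too was without overlap, with a log2 change of 0.35 ± 0.11 (SE, limma adjusted p = 0.309). Bcl10 was at 45.7, 46.7 and 44.6 RPKM in BRL37344 old, against 39.99, 41.2 and 40.02 RPKM in saline young. Each of these groups was tight, but the log2 change was small, at 0.17 ± 0.10 (SE), and did not pass.

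Traf3, an adaptor that restrains NIK and so the slower branch, was at 3.31, 3.66 and 2.52 RPKM in BRL37344 old, against 6.01, 4.52 and 4.20 RPKM in saline young. Its log2 change was -0.56 ± 0.30 (SE) without overlap, and saline old libraries were at 5.42, 2.91 and 2.58 RPKM. Ltb, at 189, 260 and 92.1 RPKM in BRL37344 old, against 241, 240 and 229 RPKM in saline young, had a log2 change of -0.51 ± 0.30 (SE) with overlapping groups. Ikbkb had one of -0.54 ± 0.33 (SE). Adjusted p was 0.612 for Traf3, 0.628 for Bcl10, 0.662 for Ltb and 0.672 for Ikbkb (limma).

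Within the BRL37344 group the members' levels differed by library. Of replicates 1, 2 and 3, replicate 3 had the lowest level for 20 of the 31 tested members, where it was the lowest for 37.8% of all genes tested, and replicate 2 the highest for 20, where it was the highest for 32.1% of all genes. Replicates 1 and 2 each exceeded the whole saline old range for 16 and 15 members, against 28.2% of all genes in both, and replicate 3 for 4 members, against 20.9%. Replicate 3 lay below that range for 12 members, against 26.8% of all genes. Genes chosen after their values were seen show this. Rel, the c-Rel subunit of lymphoid cells, was at 5.97, 6.76 and 1.97 RPKM in those libraries in order, against 2.502 to 3.4001 RPKM in saline old and 3.05 to 5.94 RPKM in saline young. Nfkb2, the p100 precursor of p52, was at 11.1, 12.3 and 7.06 RPKM in the same 3 libraries, against 6.97 to 9.37 RPKM in saline old and 7.93 to 12.7 RPKM in saline young. Several marker sums differed between these libraries too. For replicates 1, 2 and 3, HSC markers summed to 2247, 2271 and 1733 RPKM, megakaryocyte and platelet markers to 305, 269 and 697 RPKM, T and NK cell markers to 121, 102 and 241 RPKM, and neutrophil markers to 637, 6262 and 2280 RPKM. By these sums, replicate 3 was the lowest in HSC markers and the highest in megakaryocyte and platelet and in T and NK cell markers. Replicate 2 was the highest in neutrophil markers and in plasma cell markers, which summed to 184, 464 and 133 RPKM for replicates 1, 2 and 3. Jchain, 1 of these 7 plasma cell markers, was at 2.09, 263 and 6.16 RPKM there. In saline young replicate 2 it was also at 263 RPKM. The T and NK cell sum of replicate 3 was mostly Nkg7, at 235 RPKM. At least 1 RPKM was reached by 7 of these 12 markers in replicate 2 and by 3 in replicate 3. Not all HSC markers followed their sum, as Slamf1, Gata2 and Gfi1b were the highest in replicate 3. The part of these marker differences in the members' levels was not tested.

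Saline old replicate 1 also stood apart from its group. It was the highest of the 3 for 17 of 31 members, against 39.2% of all genes, with Relb, the partner of p52, at 7.62 RPKM against 1.87 and 2.05 RPKM in saline old replicates 2 and 3. Relb was at 8.98, 4.59 and 2.66 RPKM in BRL37344 old and at 3.11, 6.01 and 3.15 RPKM in saline young.

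**Figure D4:**
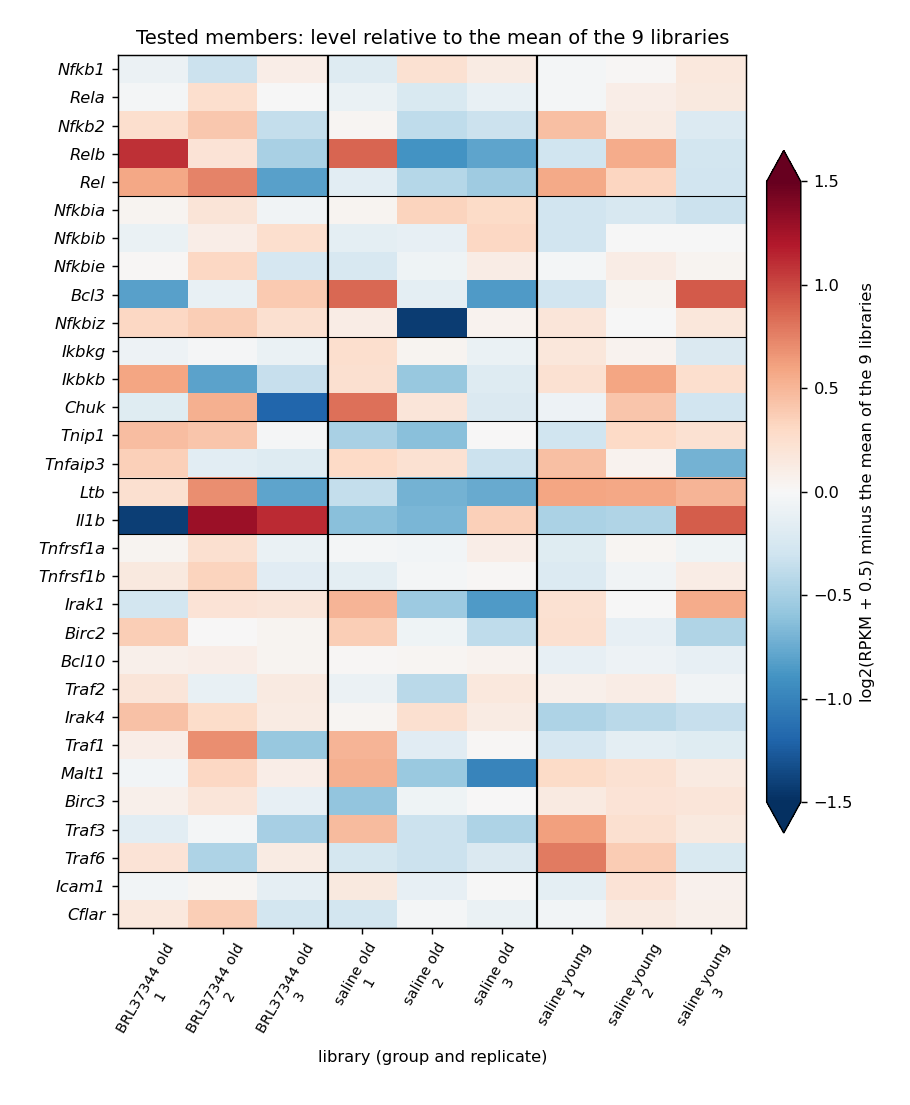
Level of each of the 31 tested members in each library as log2(RPKM + 0.5) minus its mean over the 9 libraries, with rows grouped by role and columns by group; red is higher, blue lower and colours end at 1.5 in either direction. BRL37344 old replicate 3 is blue for Rel, Nfkb2 and Ltb where replicates 1 and 2 are red, and Ltb is red in all saline young and blue in all saline old libraries.

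The rest of the pathway was read from 2 further lists of genes outside the 37. Of 49 tested further pathway genes, none passed in BRL37344 old against saline old, 0 rose and 1 fell in saline old against saline young, and none passed in BRL37344 old against saline young. The shares of all genes that passed were 0%, 1.58% and 0.769% in the same order, and 0.4% fell in saline old against saline young. The gene that fell was Tnfrsf13c, which encodes the BAFF receptor of B cells, a user of the slower branch. It stood at 5.71, 6.18 and 6.50 RPKM in saline old, against 15.3, 16.7 and 14.8 RPKM in saline young (log2 change -1.28 ± 0.19 SE, limma adjusted p = 0.00957), and at 12.2, 8.48 and 7.94 RPKM in BRL37344 old. BRL37344 old lay between the other groups without overlap with either. The part of B cells, whose markers are given beside Ltb, was not tested. Tnfrsf13c did not pass without saline young replicate 2, or once saline young replicate 3 and BRL37344 old replicate 2, the pair with the most neutrophil marker RNA, were removed. At an unadjusted p under 0.05 the list had 3, 5 and 4 genes in the 3 comparisons, against 5.64%, 15% and 9.38% of all genes.

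In BRL37344 old against saline old, the other pathway genes with the smallest p were Ripk1, the kinase recruited by TNF receptor 1, and Ube2n, the ubiquitin-conjugating enzyme Ubc13. Ripk1 was at 2.69, 1.76 and 1.06 RPKM in BRL37344 old, against 0.0606, 0.813 and 0.674 RPKM in saline old. All its values were low, with every saline old library under 1 RPKM. Saline young, at 0.930, 1.36 and 1.21 RPKM, overlapped BRL37344 old for Ripk1. Ube2n was at 15.8, 14.6 and 16.3 RPKM in BRL37344 old, against 19.3, 20.0 and 20.9 RPKM in saline old. Neither gene overlapped between BRL37344 old and saline old, and both had a limma adjusted p of 0.839, as did Tnfrsf13c. In BRL37344 old against saline young they were, beside Tnfrsf13c, Tnip3, which encodes ABIN3, and Cd14, the lipopolysaccharide co-receptor. Tnip3 was at 70.1, 62.7 and 54.9 RPKM in BRL37344 old, against 47.7, 31.9 and 29.2 RPKM in saline young, and at 74.7, 55.9 and 54.1 RPKM in saline old. Cd14 was at 3.46, 2.599 and 3.98 RPKM in BRL37344 old, against 1.14, 0.887 and 1.56 RPKM in saline young. Tnip3 had a limma adjusted p of 0.140 and Cd14 one of 0.208.

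Of 38 tested further target genes, 0 rose and 1 fell in saline old against saline young, and none passed in the other comparisons. Of all genes, 1.18% rose and 0.4% fell in saline old against saline young, and 0% and 0.769% passed in BRL37344 old against saline old and against saline young. The gene that fell was Ebi3, a subunit shared by the cytokines IL-27 and IL-35. It stood at 34.97, 27.96 and 31.3 RPKM in saline old, against 124, 147 and 154 RPKM in saline young (log2 change -2.16 ± 0.34 SE, limma adjusted p = 0.0111). In BRL37344 old it was at 63.2, 77.7 and 25.2 RPKM, and the pattern of replicates 1 and 2 above saline old with replicate 3 below it was that of Ltb. Ebi3 did not pass in saline old against saline young without saline old replicate 2, saline young replicate 2 or saline young replicate 3. At an unadjusted p under 0.05 the list had 6, 11 and 11 genes in the 3 comparisons, against 5.64%, 15% and 9.38% of all genes.

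The other targets named by their p did not pass. In BRL37344 old against saline old, Ptges, a prostaglandin E synthase, was at 3.71, 1.71 and 3.90 RPKM, against 5.56, 7.99 and 5.14 RPKM, and Pim2, a survival kinase, was at 43.2, 39.4 and 66.4 RPKM, against 85.4, 82.6 and 75.1 RPKM. The chemokine gene Ccl3 was at 22.0, 15.7 and 4.04 RPKM in BRL37344 old, against 5.19, 5.62 and 2.04 RPKM in saline old, and at 2.47, 0.978 and 2.28 RPKM in saline young. All 3 had a limma adjusted p of 0.839 against saline old. In BRL37344 old against saline young, adjusted p was 0.107 for Ebi3, 0.142 for Ccl3 and 0.156 for Ier3, an early response gene. Ier3 was at 62.6, 46.7 and 56.5 RPKM in BRL37344 old, against 37.3, 40.5 and 38.0 RPKM in saline young, without overlap.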

How the data were processed

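RNA from sorted HSCs was amplified by SMART-Seq v4 and made into libraries by Nextera XT, per the labels' protocols. Tools listed in the submitters' processing notes, without roles, are STAR 2.5.3a, Trim Galore and Partek, and the build is mm10. The authors deposited RPKM values, read as such from the values although the table is named as counts. They are not whole, and low values of 1-transcript genes step by an amount set by length. Whether they are RPKM or FPKM was not settled. An offset of 0.0001 per transcript stands in place of 0. The steps of 5574 such genes, with 200 bases taken off each length, gave the depth. Of the low values, 86.9% to 89.3% lay within 0.05 of a whole read. No counts were rebuilt.

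Values were tested as log2(RPKM + 0.5) with limma 3.58.1 in R 4.3.3, using eBayes with its trend and robust options, in 1 model of all 9 libraries without covariates (6 residual degrees of freedom). Genes entered when 3 or more libraries had 1 RPKM or more. The table had 46628 rows, and the 2 without a gene name were dropped. Adjusted p-values are Benjamini-Hochberg over 13516 genes, with a threshold of 0.05. The pseudocount understates changes of low genes. The test was checked on simulated data, with changes planted only in better expressed genes. Most member changes were smaller than those planted, so that check does not measure the power to detect them.

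Values of every library are given for called members, for the 6 members with the smallest p in each comparison and for the 2 most abundant of each role; of the further lists, for called genes or else the 3 with the smallest p. The members, lists and rules were chosen with earlier results of these data known. Alternatives were other pseudocounts, filters and scalings, sample quality weights, a block for the replicate number, a fit of 2 groups alone, each library left out, and, chosen after seeing the data, leaving out the 2 libraries highest in neutrophil markers.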

Additional observations from a re-analysis of the deposited data

How the results depend on the processing

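Of the named members' results under the alternatives, 330 kept their direction and their side of the threshold, 10 newly passed, and 0 turned round. These members were picked by the smallest p in these same data, so a kept direction is no support for them. None passed in the main fit, so none could lose a pass. Of the summary results, the numbers passing in each list and the members' median log2 change, 23 moved and 205 did not. The median log2 change of the members ranged, with a library left out, from 0.12 to 0.23 in BRL37344 old against saline old, from -0.20 to -0.08 in saline old against saline young, and from -0.09 to 0.12 in BRL37344 old against saline young. In saline old against saline young, 1 member passed with median-of-ratios scaling and 1 with only the 2 groups compared, where 1.6% and 1.63% of all genes passed; with sample quality weights 3 members, 3 further pathway genes and 7 further targets passed, and 9.5% of all genes. In BRL37344 old against saline young, sample quality weights let 1 member, 1 pathway gene and 1 target pass, and 1.25% of all genes. With a library left out, members passing numbered 0 to 1 in BRL37344 old against saline old and 0 to 3 in saline old against saline young. Further pathway genes then numbered 0 to 2 in saline old against saline young and 0 to 1 in BRL37344 old against saline young. Further targets numbered 0 to 1 in BRL37344 old against saline old, 0 to 4 in saline old against saline young and 0 to 2 in BRL37344 old against saline young. Of all genes, 0% to 0.284% then passed in BRL37344 old against saline old, 0.718% to 4.43% in saline old against saline young and 0.427% to 1.21% in BRL37344 old against saline young. Without the 2 libraries highest in neutrophil markers, 0 members passed in any comparison and 0 further pathway genes passed in saline old against saline young, where 0.631% of all genes passed. The cause was not tested. Same-numbered libraries had deviations that correlated at -0.05 to 0.19, and differently numbered ones at -0.16 to 0.13. With 3 libraries a group, these values cannot settle whether the numbers pair libraries. With the replicate number as a block, 0 members passed. Further pathway genes then numbered 2 in saline old against saline young and 1 in BRL37344 old against saline young. Of all genes, 1.29% and 0.681% passed there. At 1 RPKM a 2000-base transcript, with 200 bases taken off its length, rests on 21.9 to 81.0 reads.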
